A study of Homo sapiens with 96 samples.

Results

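Nuclear input RNA was compared between the last and the first of 5 collection windows of synchronised cells, T8-10 against T0-2. The comparison rests on 4 of the series' 96 samples, chosen by their labels and not by any measured value: T8-10 replicates 1 and 2 against T0-2 replicates 1 and 2. Paired values are given in that order, replicate 1 and then replicate 2. A further 6 nuclear input libraries from T2-4, T4-6 and T6-8 showed the course between the windows and helped to estimate the spread. All samples came from hTERT-RPE1, a human retinal pigment epithelium line made immortal with telomerase, so 1 line stands for the cell type. Every group shared the same treatment, 400 uM mimosine for 22 h, and none carried a knockdown in its labels. Mimosine is an iron-chelating amino acid that holds cells before or at the start of DNA replication. The groups differed only in the window named in the label, and the labels give no unit for its numbers. Input RNA is the RNA before selection of a nascent fraction, here from nuclei. No label states that the 2 replicates were grown as separate cultures, and the p-values then reflect only the spread between these samples, which may be technical.

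In a dividing cell, genes for licensing and copying DNA are used around the G1/S transition, and genes for spindle and division later, in G2 and mitosis. Replication-dependent histone genes supply the proteins that wrap new DNA. Their mRNAs end in a stem-loop in place of a poly(A) tail, and both their synthesis and decay follow DNA replication. Iron also matters outside replication, because the enzymes that mark hypoxia-inducible factors for destruction need it. Bulk RNA cannot separate a change in the number of cells in a phase from a change in RNA per cell.

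Libraries held 8.33 to 19.6 M reads counted in genes, and 1 read on a gene of 2 kb was worth 0.0255 to 0.0597 RPKM (reads divided by gene length in kilobases and by library size in M). Replicate numbers 1 and 2 stood apart: all 10 libraries were closest to a library of the same number. RNU4-2, a spliceosomal small nuclear RNA, lay between 75.6 and 234 RPKM in the replicate 1 libraries and between 27360 and 66556 RPKM in the replicate 2 libraries. The windows were therefore compared within a replicate number. Pigment epithelium genes were partly present: OTX2, a transcription factor of this epithelium, was measured at 1.41 to 3.25 RPKM over the 10 libraries and KRT18, a keratin, at 4.63 to 12.3 RPKM. Defining genes of the mature epithelium, TYR, TYRP1, LRAT and BEST1, stayed under the level needed for a test, with at most 0.11 RPKM. Among markers of other cell types, PTPRC of blood cells and CDH1 of other epithelia reached at most 0.0185 and 0.0271 RPKM, and the neuronal gene SYT1 was the exception at 0.505 to 1.54 RPKM.

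In the late window 38 of 46 histone genes, 37 of 59 G2 and mitosis genes, 10 of 16 snoRNA host genes and 17 of 39 nucleolar genes were higher. Both cyclin E genes were lower, with 19 of 45 hypoxia-response genes and 9 of 19 growth-factor feedback genes. Of 9509 genes tested, 1660 were higher at T8-10, 17.5% of those tested, and 737 were lower, 7.75%. These calls come from limma with the replicate number as a block, at an adjusted p under 0.05. All of them moved in 1 direction in both pairs, T8-10 minus T0-2 within replicate 1 and within replicate 2. The tested difference is the mean of these pair differences, so the call itself favours pairs that share a sign. Changes over 1 on the log2(RPKM + 0.25) scale, used for all differences below, numbered 172 higher and 91 lower. For 3626 genes, 38.1%, the T8-10 and T0-2 libraries did not overlap, and 1235 of the higher and 589 of the lower calls were among them. The median difference over all tested genes was 0.12, so the balance of calls depended on the scale: higher calls made up 69.3% as deposited, 49.0% after median scaling and 45.6% after quantile normalization.

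Without the replicate block, 18 genes were higher, 0.189%, and 7 were lower, 0.0736%, and all 25 were also called with it; 723 and 382 had an unadjusted p under 0.05. Among the 18 were 14 replication-dependent histones, with H1F0, RRS1, FZD2, which encodes a Wnt receptor, and the pseudogene LINC00475. The 7 lower genes were NDRG1, HK2, LINC01705, GFPT2, an enzyme of hexosamine synthesis, ADTRP, R3HCC1 and LINC01605. FZD2, LINC00475, GFPT2, ADTRP, R3HCC1 and LINC01605 were named after their values were seen. Each of the 4 compared libraries mattered for the count. Below, T0-2 replicates 1 and 2 are called early 1 and early 2, and T8-10 replicates 1 and 2 late 1 and late 2. Leaving out early 1, early 2, late 1 and late 2 in turn left 260, 679, 256 and 918 higher and 162, 363, 165 and 317 lower genes. Of 112 called genes named by the rule, 54 stayed called in all 4 of these fits. Another 13 were called in none of them: SLBP, LSM11, H1FX, H3F3B, DUSP2, NORAD, PURPL, OTX2, PSPH, SLC7A1, SQLE, SRPK1 and STEAP3.

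**Figure D1:**
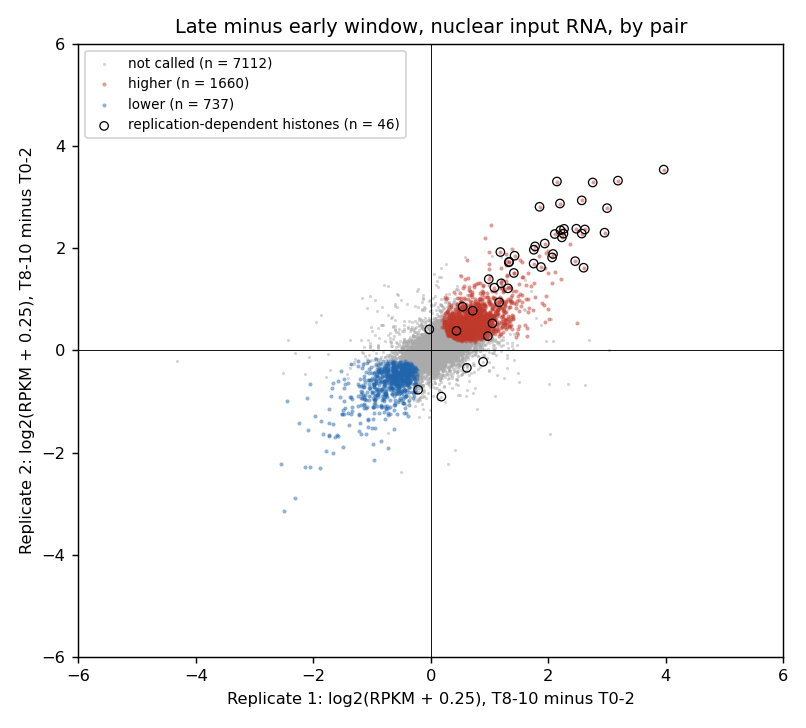
Log2(RPKM + 0.25) at T8-10 minus T0-2 for each of the 9509 tested genes, within replicate 1 (horizontal) and within replicate 2 (vertical), coloured by call, with the 46 replication-dependent histone genes circled. The 1660 higher and 737 lower genes lie in the quadrants where both pairs share a sign, which the call itself favours. Most histones sit at the upper right.

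Replication-dependent histone RNA was higher late than early, and had passed its highest level by then. Of 46 tested histone genes, 38 were higher and none was lower, against 17.5% and 7.75% of all genes, and their median difference was 1.88 against 0.12. The summed level of the 46 genes was 1108 and 998 RPKM in early 1 and early 2 and 4322 and 4055 RPKM in late 1 and late 2. It was highest at T4-6, at 6300.5 and 5248 RPKM. By gene, 41 of 46 had their highest mean at T4-6 and 44 had their lowest at T0-2. At T8-10, 43 lay below their own T4-6 mean, at a median of 0.672 of it. The 15 largest rises among called genes with at least 2 RPKM at T8-10 and separate groups were all in histone genes. Without the replicate block 14 histones were called.

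By class, all 5 linker histone H1 genes and all 11 H2A genes were higher, with 11 of 14 H2B, 5 of 8 H3 and 6 of 8 H4 genes. Class medians were 2.28 for H1, 1.98 for H2A, 1.5 for H2B, 1.72 for H3 and 1.6 for H4. HIST1H1D, a linker histone that binds DNA between nucleosomes, had 0.731 and 0.304 RPKM at T0-2 and 15.1 and 6.2 RPKM at T8-10 (log2 difference 3.75, SE 0.27, adjusted p 0.000752). No early library came near a late one. HIST1H1C, the linker gene with the highest early level, had 122 and 110.2 RPKM at T0-2 and 585 and 538 RPKM at T8-10 (log2 difference 2.27, SE 0.18, adjusted p 0.000888). Its groups were equally separate, from a start far above that of HIST1H1D. Among core histones, HIST1H2BE had 2.88 and 1.22 RPKM at T0-2 and 28.3 and 14.5 RPKM at T8-10 (log2 difference 3.26, SE 0.18, adjusted p 0.000659). HIST1H2BB had 4.75 and 1.42 RPKM at T0-2 and 33.5 and 16 RPKM at T8-10 (log2 difference 3.02, SE 0.27, adjusted p 0.00127). In both H2B genes replicate 1 exceeded replicate 2 within each window, and the late libraries lay above the early ones. HIST1H2AE had 27.1 and 26.5 RPKM at T0-2 and 218 and 184 RPKM at T8-10 (log2 difference 2.89, SE 0.20, adjusted p 0.000752). HIST1H3H had 19 and 12.2 RPKM at T0-2 and 114 and 94.9 RPKM at T8-10 (log2 difference 2.75, SE 0.21, adjusted p 0.000855). HIST1H4D, the H4 gene with the largest rise, had 35 and 18.2 RPKM at T0-2 and 169.6 and 95.7 RPKM at T8-10 (log2 difference 2.32, SE 0.19, adjusted p 0.00108). Early and late libraries did not overlap in any of these 7 genes, as the choice of the 15 largest rises required. Histone genes have near-identical copies, so how reads were divided among single genes is uncertain, and the sources used here do not say whether RNA was selected by poly(A) tail.

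The 8 histone genes without a call were HIST1H3E, HIST3H2BB, HIST4H4, HIST1H3D, HIST1H2BN, HIST1H2BJ, HIST1H4I and HIST1H3J. Their differences ran from -0.49 in HIST1H3J to 0.79 in HIST1H3E, with adjusted p from 0.0704 to 0.730. In 4 of them the pairs differed in sign. HIST1H2BJ had mean levels of 11.1 RPKM at T0-2, 23.1 RPKM at T4-6 and 12.3 RPKM at T8-10, so it rose and fell between the compared windows. HIST1H4I had means of 3, 1.88 and 2.61 RPKM at those windows, a course opposite to that of most of the list. Both genes are among those whose pairs differed in sign, with 0.61 and -0.34 in HIST1H2BJ and 0.18 and -0.91 in HIST1H4I.

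**Figure D2:**
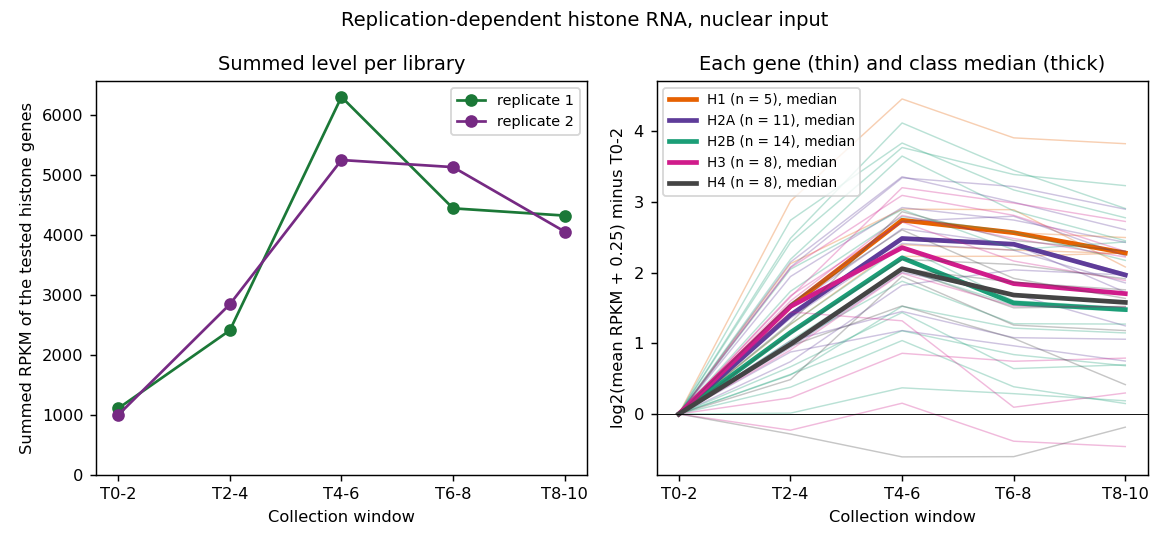
Replication-dependent histone RNA in the 10 nuclear input libraries across 5 windows: summed RPKM of 46 genes per library (left) and log2 mean RPKM relative to T0-2 for each gene, with class medians (right). The sum rises from 1108 and 998 RPKM at T0-2 to 6300.5 and 5248 RPKM at T4-6 and is 4322 and 4055 RPKM at T8-10, and all 5 class medians follow that course.

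Promoter sequences of the histone genes with large rises are shown because 38 of the 46 members rose and the classes differ in promoter letters. The 150 bases before the annotated start are given 5′ to 3′ in the gene's direction (RefSeq, GRCh38.p14). Capitals mark the CCAAT box, the TATA box letters TATAAA and the octamer ATTTGCAT, the letters bound by OCT1, on either strand.
HIST1H1D, chr6:26234988-26235137, minus strand: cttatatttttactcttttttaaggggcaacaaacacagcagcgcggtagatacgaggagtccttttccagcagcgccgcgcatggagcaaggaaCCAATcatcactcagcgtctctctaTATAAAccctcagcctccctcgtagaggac
HIST1H2BE, chr6:26183611-26183760, plus strand: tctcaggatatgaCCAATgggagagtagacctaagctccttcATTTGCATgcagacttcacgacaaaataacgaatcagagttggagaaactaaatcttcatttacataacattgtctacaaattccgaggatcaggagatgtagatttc
HIST1H2BB, chr6:26043714-26043863, minus strand: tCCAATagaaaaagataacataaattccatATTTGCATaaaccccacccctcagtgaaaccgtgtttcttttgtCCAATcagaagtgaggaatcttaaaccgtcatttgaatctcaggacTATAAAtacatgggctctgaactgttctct
HIST1H2AE, chr6:26216771-26216920, plus strand: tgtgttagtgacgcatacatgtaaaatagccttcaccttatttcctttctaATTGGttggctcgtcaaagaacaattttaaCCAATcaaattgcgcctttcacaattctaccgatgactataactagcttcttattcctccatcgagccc
HIST1H3H, chr6:27809901-27810050, plus strand: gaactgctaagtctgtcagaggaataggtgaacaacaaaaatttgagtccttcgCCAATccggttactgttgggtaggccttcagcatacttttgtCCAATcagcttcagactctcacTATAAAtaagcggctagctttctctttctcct

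RefSeq promoters were matched for 40 of the 46 histone genes, and the 250 bases before the start were searched on both strands. CCAAT occurred in all 5 H1, 10 H2A, 14 H2B and 5 H3 promoters matched and in 1 of 6 H4 promoters, against 33% of 27305 promoters. The octamer ATTTGCAT occurred in 8 of 10 H2A and 10 of 14 H2B promoters, in 1 of 5 H3 promoters and in no H1 or H4 promoter, against 1.66% of all. TATAAA occurred in 29 of the 40, a median of 31 bases before the start, against 11.1% of all promoters. The octamer lay a median of 194.5 bases before the start in H2A and 78 in H2B promoters. In 9 pairs of histone genes on opposite strands the promoter windows overlapped, mostly an H2A beside an H2B gene. Letters in such a shared window can count for both genes, so the H2A and H2B counts are not independent. HIST1H2AD and HIST1H2BF, which share such a window, rose by 2.43 and 2.43. HIST1H2BF also shares it with HIST1H3D, whose difference was 0.33 and was not called. HIST1H2AE and HIST1H2BG rose by 2.89 and 2.54. In contrast HIST1H2AG rose by 1.26 beside a difference of 0.14 in HIST1H2BJ, which was not called. A match is a description of letters, and binding was not measured.

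Factors that make and control histone mRNA were lower or had no call. Of 14 tested, none was higher and 4 were lower, 0% and 28.6% against 17.5% and 7.75% of all genes. The median difference was 0.01, or -0.10 after quantile normalization. SLBP, the protein that binds the histone stem-loop, had 2.95 and 3.35 RPKM at T0-2 and 2.06 and 1.97 RPKM at T8-10 (log2 difference -0.59, SE 0.13, adjusted p 0.0182). NPAT, the coactivator of histone gene transcription, had 1.93 and 1.74 RPKM at T0-2 and 1.12 and 1.1 RPKM at T8-10 (log2 difference -0.61, SE 0.10, adjusted p 0.0077). CASP8AP2, also called FLASH, and LSM11, a subunit of the U7 particle that cuts histone pre-mRNA, differed by -0.64 and -0.64. In SLBP, NPAT and CASP8AP2 the late libraries lay below both early ones, and LSM11 did likewise. Leaving out early 1, early 2, late 1 and late 2 in turn left 0, 1, 0 and 2 of these calls, and none remained without the block.

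Replication-independent histone variants, which are also made outside S phase and mostly carry poly(A) tails, gave 3 higher and 0 lower of 9 tested. These were 33.3% and 0%, against 17.5% and 7.75% of all genes. The list had 1 higher after quantile normalization and after median scaling. H1F0, a linker histone of resting and differentiated cells, was listed at 0 in both early libraries and at 0.748 and 0.717 RPKM in late 1 and late 2 (adjusted p 0.00153). Its mean rose in each window, with 0.0674, 0.347 and 0.547 RPKM at T2-4, T4-6 and T6-8. H1FX had 2.59 and 2.2 RPKM at T0-2 and 3.95 and 5.65 RPKM at T8-10 (log2 difference 0.92, SE 0.27, adjusted p 0.0428). H3F3B, which encodes histone H3.3, had 8.94 and 8.37 RPKM at T0-2 and 13.1 and 11.1 RPKM at T8-10 (log2 difference 0.47, SE 0.12, adjusted p 0.0276). In all 3 genes both late libraries exceeded both early ones. H1F0 alone was called when any of early 1, early 2, late 1 or late 2 was left out.

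Of 68 tested genes of the G1/S transition and DNA replication, 26 were lower late, 38.2% against 7.75% of all genes. Both E-type cyclins were among them. None of the 68 was higher, against 17.5% of all genes, and the median difference was -0.37. CCNE1, cyclin E1, the activator of CDK2 at S-phase entry, had 1.96 and 1.44 RPKM at T0-2 and 0.369 and 0.296 RPKM at T8-10 (log2 difference -1.73, SE 0.11, adjusted p 0.000659). Its mean fell in every window, from 1.70 RPKM through 1.35, 0.891 and 0.404 to 0.332 RPKM. CCNE2, its paralog, had 4.38 and 3.45 RPKM at T0-2 and 1.1 and 0.693 RPKM at T8-10 (log2 difference -1.88, SE 0.16, adjusted p 0.0011). Both cyclin E genes were well below their early libraries in each late library. CDC6, a loader of the MCM helicase, had 5.83 and 7.76 RPKM at T0-2 and 3.52 and 3.12 RPKM at T8-10 (log2 difference -0.97, SE 0.17, adjusted p 0.00899). DTL, a substrate receptor that directs replication factors to destruction, had 2.55 and 2.41 RPKM at T0-2 and 1.2 and 1.12 RPKM at T8-10 (log2 difference -0.95, SE 0.13, adjusted p 0.00412). WDR76 had 1.74 and 2.02 RPKM at T0-2 and 0.769 and 0.843 RPKM at T8-10 (log2 difference -1.01, SE 0.12, adjusted p 0.00236). None of these 5 genes had overlapping groups. The members did not share 1 course: 23 members were highest at T0-2, 18 at T2-4, 19 at T4-6 and 7 at T6-8. The letters TTTGGCGC, 1 form of the E2F site, occurred in 7 of 56 matched promoters against 0.553% of all. With early 1, early 2, late 1 and late 2 left out in turn, 11, 11, 10 and 11 members were lower, and without the block none was. After quantile normalization 39 were.

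Of 59 tested G2 and mitosis genes, 37 were higher late, 62.7% against 17.5% of all genes, and none was lower, against 7.75%. The median difference was 0.54, and 44 had their highest mean at T8-10. CDC20, the activator of the anaphase-promoting complex, had 2 and 2.81 RPKM at T0-2 and 8.72 and 8.46 RPKM at T8-10 (log2 difference 1.75, SE 0.19, adjusted p 0.00198). PLK1, a kinase of mitotic entry and spindle assembly, had 0.777 and 1.48 RPKM at T0-2 and 2.71 and 3.46 RPKM at T8-10 (log2 difference 1.31, SE 0.13, adjusted p 0.00148). Both genes were higher in each late library than in any early one. CCNB1, cyclin B1, the partner of CDK1, had 1.89 and 2.25 RPKM at T0-2 and 5.07 and 4.76 RPKM at T8-10 (log2 difference 1.16, SE 0.14, adjusted p 0.00246). Its mean climbed through 2.63, 3.20 and 3.78 RPKM in the windows between, whereas PLK1 stayed at 1.13 and 1.19 RPKM at T2-4 and T4-6 before it reached 1.78 RPKM at T6-8. KIF20A, a kinesin of cytokinesis, had 4.58 and 3.05 RPKM at T0-2 and 9.18 and 6.91 RPKM at T8-10 (log2 difference 1.04, SE 0.13, adjusted p 0.00258). CDC25B, a phosphatase that activates CDK1, had 0.744 and 2.06 RPKM at T0-2 and 1.93 and 4.11 RPKM at T8-10 (log2 difference 1.03, SE 0.10, adjusted p 0.00163). Here late 1 was below early 2, so the groups overlapped and the call rests on the pairing. CCNA2, cyclin A2, which acts in S phase and G2, had 6.58 and 4.02 RPKM at T0-2 and 12.7 and 6.75 RPKM at T8-10 (log2 difference 0.82, SE 0.15, adjusted p 0.00916). Late 2 of CCNA2 exceeded early 1 by little. Leaving out early 1, early 2, late 1 and late 2 in turn left 9, 22, 12 and 29 higher members, and without the block none was called.

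Promoters of PLK1 and CDC20 are shown because they were among the 5 members with the largest rises and hold the letters TTTGAA, the core of the cell-cycle homology region of many G2 and mitosis genes, in capitals (150 bases before the start, RefSeq, GRCh38.p14).
PLK1, chr16:23678739-23678888, plus strand: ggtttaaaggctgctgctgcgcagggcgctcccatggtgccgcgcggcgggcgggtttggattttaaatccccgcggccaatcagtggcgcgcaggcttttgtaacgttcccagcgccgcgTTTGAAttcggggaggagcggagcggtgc
CDC20, chr1:43358831-43358980, plus strand: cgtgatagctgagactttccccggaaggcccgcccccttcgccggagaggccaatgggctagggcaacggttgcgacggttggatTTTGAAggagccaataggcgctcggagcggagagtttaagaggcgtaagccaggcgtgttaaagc
TTTGAA occurred on either strand within 250 bases before the start in 24 of 50 matched G2 and mitosis promoters, a median of 29 bases before it, against 13.6% of all promoters. It occurred in 8.08% of promoters of tested genes, in 2 of 56 G1/S promoters and in 13 of 40 histone promoters. CCAAT occurred in 37 of the 50.

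**Figure D3:**
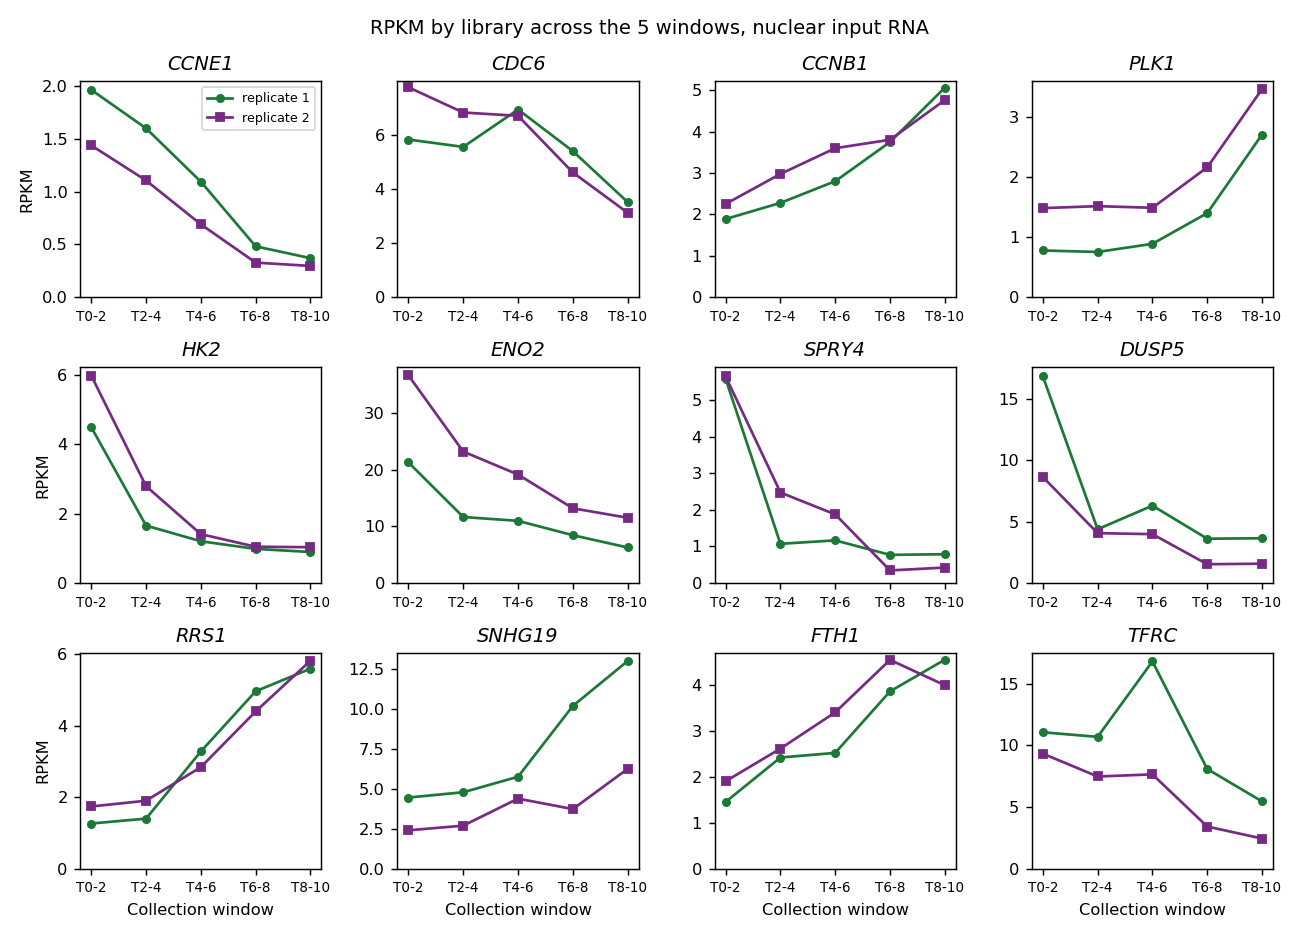
RPKM in each nuclear input library across the 5 windows for 12 named genes, replicate 1 as circles and replicate 2 as squares, each axis starting at 0. CCNE1, HK2, ENO2, SPRY4 and DUSP5 are highest at T0-2, and CCNB1, PLK1, RRS1 and SNHG19 are highest at T8-10. TFRC and CDC6 have their highest mean at T4-6, but only replicate 1 is highest there, and replicate 2 is highest at T0-2.

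Of 45 tested hypoxia-response and glycolysis genes, 19 were lower late, 42.2% against 7.75% of all genes, and 1 was higher, 2.22% against 17.5%. The median difference was -0.44, and 31 had their highest mean at T0-2. NDRG1, a hypoxia- and iron-responsive gene, had 6.04 and 9.91 RPKM at T0-2 and 1.02 and 1.11 RPKM at T8-10 (log2 difference -2.60, SE 0.16, adjusted p 0.000659). HK2, hexokinase 2, which starts glycolysis, had 4.5 and 5.99 RPKM at T0-2 and 0.893 and 1.03 RPKM at T8-10 (log2 difference -2.17, SE 0.15, adjusted p 0.000752). Each late library of both genes held less than any early one. HK2 reached 2.23 RPKM at T2-4 and 1.31 RPKM at T4-6, so most of its decrease fell between the first windows, while NDRG1 went through 4.61, 3.90 and 1.95 RPKM. ENO2, an enolase of glycolysis, had 21.3 and 36.6 RPKM at T0-2 and 6.26 and 11.5 RPKM at T8-10 (log2 difference -1.69, SE 0.13, adjusted p 0.000888). PFKFB4, which sets the level of a glycolysis activator, had 2.69 and 5.71 RPKM at T0-2 and 1.02 and 1.99 RPKM at T8-10 (log2 difference -1.31, SE 0.16, adjusted p 0.00265). Both were higher in replicate 2 than in replicate 1, early and late. STC2, a secreted glycoprotein, was the exception with 18.9 and 25.4 RPKM at T0-2 and 48.6 and 45.7 RPKM at T8-10 (log2 difference 1.10, SE 0.23, adjusted p 0.015). With early 1, early 2, late 1 and late 2 left out in turn, 10, 9, 9 and 13 members were lower. Without the block 2 were, NDRG1 and HK2, and after quantile normalization 33 were.

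HK2 and ENO2 promoters are shown because these genes were among the largest decreases of the list and hold ACGTG. These letters, the core of the hypoxia response element, are in capitals on either strand (150 bases before the start, RefSeq, GRCh38.p14). NDRG1, which decreased most, had no matched promoter.
HK2, chr2:74833977-74834126, plus strand: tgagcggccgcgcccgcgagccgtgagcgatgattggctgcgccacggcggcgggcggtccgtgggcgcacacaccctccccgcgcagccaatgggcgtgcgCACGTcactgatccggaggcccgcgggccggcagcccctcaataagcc
ENO2, chr12:6914430-6914579, plus strand: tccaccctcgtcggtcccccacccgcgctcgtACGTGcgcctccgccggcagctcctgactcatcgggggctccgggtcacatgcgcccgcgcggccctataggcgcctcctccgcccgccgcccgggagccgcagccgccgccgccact
ACGTG occurred within 250 bases before the start in 21 of 39 matched promoters of the list. The share was 18.7% over all promoters and 24.1% over those of tested genes. ACGTG also occurred in 17 of 50 G2 and mitosis, 12 of 56 G1/S and 4 of 40 histone promoters. Matches of different motifs overlapped in 2 of the 185 promoters of the 4 lists searched.

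Of 12 tested genes of iron uptake and storage, 3 were higher and 1 was lower, 25% and 8.33% against 17.5% and 7.75% of all genes, with a median difference of 0.11. After quantile normalization 1 was higher and 1 lower, and after median scaling 2 and 1. FTH1, the heavy chain of ferritin, which stores iron, had 1.45 and 1.9 RPKM at T0-2 and 4.55 and 4 RPKM at T8-10 (log2 difference 1.24, SE 0.15, adjusted p 0.00259). FTL, the light chain, had 18.7 and 11.6 RPKM at T0-2 and 30.4 and 25 RPKM at T8-10 (log2 difference 0.89, SE 0.23, adjusted p 0.0307). TFRC, the transferrin receptor that takes up iron, had 11.1 and 9.33 RPKM at T0-2 and 5.46 and 2.44 RPKM at T8-10 (log2 difference -1.41, SE 0.24, adjusted p 0.00774). The ferritin chains were higher and the uptake receptor lower, with no overlap between the early and late libraries in any of them. The mean of TFRC was 12.2 RPKM at T4-6 and 5.75 RPKM at T6-8, but its replicates differed. At T4-6 replicate 1 had 16.8 RPKM, above early 1, and replicate 2 had 7.65 RPKM, below early 2. STEAP3, an iron reductase, had a difference of 0.39 with overlapping groups. Leaving out early 1, early 2, late 1 and late 2 in turn left 2, 1, 1 and 1 higher members and TFRC lower each time, and without the block none was called.

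Of 19 tested feedback inhibitors of growth-factor signalling, 9 were lower late, 47.4% against 7.75% of all genes, and none was higher, against 17.5%. The median difference was -0.44, and 14 had their highest mean at T0-2. SPRY4, a Sprouty inhibitor of receptor signalling, had 5.57 and 5.64 RPKM at T0-2 and 0.784 and 0.42 RPKM at T8-10 (log2 difference -2.82, SE 0.40, adjusted p 0.00454), the largest decrease named by the rule. DUSP5, a phosphatase of nuclear ERK, had 16.9 and 8.64 RPKM at T0-2 and 3.64 and 1.57 RPKM at T8-10 (log2 difference -2.21, SE 0.24, adjusted p 0.00199). DUSP6, a phosphatase of cytoplasmic ERK, had 8.69 and 2.45 RPKM at T0-2 and 2.45 and 0.59 RPKM at T8-10 (log2 difference -1.70, SE 0.28, adjusted p 0.00697). SPRY4 and DUSP5 were separate between the windows, whereas early 2 of DUSP6 and late 1 were at about the same level. SPRY4 dropped to 1.77 RPKM at T2-4 and DUSP5 to 4.22 RPKM, so their decrease began with the second window. DUSP2 and SPRY2 differed by -1.30 and -1.05. With early 1, early 2, late 1 and late 2 left out in turn, 3, 6, 4 and 4 members were lower, and without the block none was.

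Immediate early genes, which respond first to growth factors, gave 6 lower and 1 higher of 20 tested. These were 30% and 5%, against 7.75% and 17.5% of all genes. The median difference was -0.16, or 0.07 where at least 1 RPKM was required. NR4A1, an orphan nuclear receptor, had 0.878 and 0.692 RPKM at T0-2 and 0.0877 and 0.176 RPKM at T8-10 (log2 difference -1.44, SE 0.27, adjusted p 0.0108). FOS, an AP-1 subunit, had 2.72 and 1.91 RPKM at T0-2 and 1.01 and 0.472 RPKM at T8-10 (log2 difference -1.41, SE 0.36, adjusted p 0.0283). EGR1, a zinc finger factor, had 4.29 and 3.55 RPKM at T0-2 and 1.35 and 1.34 RPKM at T8-10 (log2 difference -1.38, SE 0.28, adjusted p 0.0131). In these 3 genes the late libraries were lower than both early ones. ARC and MAFF differed by -1.30 and -1.09. BTG2, an antiproliferative gene that is also a p53 target, was higher with a difference of 1.05. The lower calls fell to 1, 4, 3 and 1 without early 1, early 2, late 1 and late 2, and to 0 without the block.

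Cytokine genes of the NF-kB list were lower for 6 of 19 tested, 31.6% against 7.75% of all genes. None was higher, against 17.5% of all genes, and the median difference was -0.32. CSF2, the cytokine GM-CSF, had 8.71 and 2.81 RPKM at T0-2 and 2.58 and 0.513 RPKM at T8-10 (log2 difference -1.83, SE 0.43, adjusted p 0.0214). IL11, an interleukin of the IL-6 family, had 11.9 and 6.12 RPKM at T0-2 and 4.11 and 2.43 RPKM at T8-10 (log2 difference -1.36, SE 0.13, adjusted p 0.00146). Each was below its early libraries in both late libraries. PTGS2, the inducible cyclooxygenase, had 3.09 and 0.579 RPKM at T0-2 and 0.553 and 0.277 RPKM at T8-10 (log2 difference -1.35, SE 0.31, adjusted p 0.0187). CCL20 and CXCL8 differed by -1.15 and -0.97, and their groups overlapped, with early 2 below late 1 in each. The number of lower members was 1, 6, 2 and 2 without early 1, early 2, late 1 and late 2 and 0 without the block. It was 4 with no filter on low values.

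Genes of the TGF-beta, YAP and matrix list gave 5 higher and 4 lower of 32 tested, 15.6% and 12.5% against 17.5% and 7.75% of all genes, with a median difference of 0.16. After quantile normalization 4 were higher and 7 lower, with a median of -0.20. COL7A1, the collagen of anchoring fibrils, had 2.05 and 7.11 RPKM at T0-2 and 8.68 and 15.1 RPKM at T8-10 (log2 difference 1.51, SE 0.24, adjusted p 0.00642). COL1A1, a chain of type I collagen, had 0.569 and 2.71 RPKM at T0-2 and 2.87 and 5.25 RPKM at T8-10 (log2 difference 1.41, SE 0.28, adjusted p 0.0121). In both collagens early 1 was far below early 2, and late 1 exceeded early 2 by little. TGFB2, a TGF-beta ligand, had a difference of 0.90 with overlapping groups. ITGA2, a collagen-binding integrin chain, had 6.83 and 4.39 RPKM at T0-2 and 2.5 and 2.2 RPKM at T8-10 (log2 difference -1.14, SE 0.13, adjusted p 0.00211). SKIL, a repressor of SMAD signalling, differed by -0.93. Without early 1, early 2, late 1 and late 2, the higher members numbered 2, 4, 2 and 5 and the lower 3, 3, 2 and 3, with none without the block.

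snoRNA host genes, whose introns carry the guide RNAs of ribosomal RNA modification, were higher late for 10 of 16 tested. This was 62.5% against 17.5% of all genes, with none lower, against 7.75%, and a median of 0.72. SNHG19 had 4.46 and 2.4 RPKM at T0-2 and 13 and 6.25 RPKM at T8-10 (log2 difference 1.39, SE 0.21, adjusted p 0.00581). GAS5, a host of many snoRNAs, had 12.2 and 9.13 RPKM at T0-2 and 29.5 and 14 RPKM at T8-10 (log2 difference 0.93, SE 0.18, adjusted p 0.0124). SNHG8 had 4.06 and 6.36 RPKM at T0-2 and 16.3 and 9.5 RPKM at T8-10 (log2 difference 1.25, SE 0.38, adjusted p 0.0445). The late libraries exceeded the early ones in all 3 genes, and late 1 exceeded late 2. SNHG25 had 0.137 RPKM in early 1 and 1.86 RPKM in early 2, and its difference was 2.49 in replicate 1 and 0.53 in replicate 2. The list's median was 1.14 in replicate 1 and 0.39 in replicate 2. No member was called without early 1 or without late 1, 8 without early 2, 10 without late 2 and none without the block. With only the 4 compared libraries in the fit, 4 were called.

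Nucleolar and ribosome biogenesis genes gave 17 higher and 0 lower of 39 tested, 43.6% and 0% against 17.5% and 7.75% of all genes. Their median was 0.47, and 28 had their highest mean at T8-10. RRS1, an assembly factor of the large ribosomal subunit, had 1.26 and 1.74 RPKM at T0-2 and 5.6 and 5.82 RPKM at T8-10 (log2 difference 1.78, SE 0.17, adjusted p 0.00146). Its mean was 1.65 RPKM at T2-4, 3.06 at T4-6 and 4.68 at T6-8, and it was also called without the block. RRP9, a protein of the U3 particle, had 0.36 and 0.762 RPKM at T0-2 and 1.1 and 1.51 RPKM at T8-10 (log2 difference 0.97, SE 0.19, adjusted p 0.012). UTP15, a subunit that processes the small subunit's RNA, had 1.02 and 0.595 RPKM at T0-2 and 2.36 and 1.24 RPKM at T8-10 (log2 difference 0.93, SE 0.10, adjusted p 0.00199). NOP2, a methyltransferase of ribosomal RNA, and NPM3, a nucleoplasmin, differed by 0.92 and 0.90. None of these 5 genes had overlapping groups. The count was 2, 10, 2 and 18 without early 1, early 2, late 1 and late 2 and 1 without the block.

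Cytosolic ribosomal protein genes mostly had no call: 4 of 66 were higher, 6.06% against 17.5% of all tested genes, and none was lower. Their median was 0.15, with 0.38 in replicate 1 and -0.04 in replicate 2. RPS29 had 1.14 and 1.33 RPKM at T0-2 and 2.14 and 1.92 RPKM at T8-10 (log2 difference 0.62, SE 0.13, adjusted p 0.0133). RPS27L, a ribosomal protein paralog induced by p53, RPL37A and RPL37 differed by 0.56, 0.56 and 0.59. Except in RPL37 the late libraries exceeded the early ones. Leaving out early 1, early 2, late 1 and late 2 in turn gave 1, 2, 0 and 8 calls.

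Targets of p53 were higher for 15 of 32 tested and lower for 1, 46.9% and 3.12% against 17.5% and 7.75% of all genes. Their median was 0.50, and 15 had their highest mean at T4-6. PLK2, a polo-like kinase, had 36.1 and 18.5 RPKM at T0-2 and 129.8 and 67.4 RPKM at T8-10 (log2 difference 1.85, SE 0.16, adjusted p 0.00125). GDF15, a secreted stress factor, had 0.544 and 1.34 RPKM at T0-2 and 1.63 and 2.73 RPKM at T8-10 (log2 difference 1.07, SE 0.13, adjusted p 0.00246). BTG2 had 1.96 and 2.35 RPKM at T0-2 and 4.36 and 5.09 RPKM at T8-10 (log2 difference 1.05, SE 0.13, adjusted p 0.00257). All 3 were higher late in each replicate, though GDF15 had its highest mean, 4.16 RPKM, at T6-8. The highest mean of BTG2 was 4.91 RPKM at T4-6, near its 4.73 RPKM at T8-10. FDXR, a mitochondrial reductase, differed by 0.88 with overlapping groups. PMAIP1, which encodes the BH3-only protein NOXA, went the other way with 10.5 and 5.62 RPKM at T0-2 and 3.56 and 2.37 RPKM at T8-10 (log2 difference -1.33, SE 0.15, adjusted p 0.00215). The higher members numbered 3, 7, 3 and 8 without early 1, early 2, late 1 and late 2, 10 in the fit of the 4 compared libraries, and 0 without the block.

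Interferon-stimulated genes gave 7 higher and 0 lower of 17 tested, 41.2% and 0% against 17.5% and 7.75% of all genes, with a median of 0.41. IFI44L, an antiviral response gene, had 0.239 and 0.348 RPKM at T0-2 and 0.97 and 1.15 RPKM at T8-10 (log2 difference 1.28, SE 0.18, adjusted p 0.00454). STAT2, a transcription factor of the interferon response, had 3.88 and 6.19 RPKM at T0-2 and 8.57 and 11.5 RPKM at T8-10 (log2 difference 0.98, SE 0.15, adjusted p 0.00524). ISG15, a ubiquitin-like modifier, differed by 0.75 and IFIT5 by 0.95. In each of these 4 genes the late libraries exceeded both early ones. Calls numbered 2, 4, 2 and 6 without early 1, early 2, late 1 and late 2 and 0 without the block.

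NRF2 targets, genes of the antioxidant response, were higher for 6 of 13 tested, 46.2% against 17.5% of all genes. None was lower, against 7.75% of all genes, and the median was 0.22. FTH1 and FTL, the ferritin chains given above, were among them. SLC7A11, a cystine transporter, had 0.941 and 0.594 RPKM at T0-2 and 1.54 and 1.98 RPKM at T8-10 (log2 difference 0.99, SE 0.24, adjusted p 0.022). NQO1, a quinone reductase, and TKT, transketolase, differed by 0.77 and 0.76. All the called members were higher late in both pairs, as were all higher calls over all genes. Calls numbered 2, 3, 2 and 3 without early 1, early 2, late 1 and late 2, 4 after quantile normalization and 0 without the block.

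Other stress and metabolic lists held a smaller share of higher calls than all genes. In the ATF4, sterol synthesis and SR splicing factor lists, 9.09%, 8% and 9.09% were higher, against 17.5% of all genes. Lower calls were 9.09%, 8% and 4.55%, against 7.75%, and rest on few members. Of 33 ATF4 and unfolded protein response genes, 3 were higher and 3 were lower, with a median of 0.12, or -0.03 after quantile normalization. VLDLR, a lipoprotein receptor, had 2.51 and 1.66 RPKM at T0-2 and 0.617 and 0.448 RPKM at T8-10 (log2 difference -1.56, SE 0.15, adjusted p 0.00138), the largest change in that list. SLC7A1, a transporter of basic amino acids, and PSPH, an enzyme of serine synthesis, differed by -0.54 and 0.43. Of 25 sterol synthesis genes, 2 were higher and 2 were lower, among them SCD, a fatty acid desaturase, with 19.4 and 15.9 RPKM at T0-2 and 11 and 6.74 RPKM at T8-10 (log2 difference -1.0, SE 0.18, adjusted p 0.00887). FDFT1 and SQLE, consecutive enzymes of sterol synthesis, differed by 0.69 and 0.39, and STARD4, a sterol carrier, by -0.74. Of 22 SR splicing factors and their kinases, 2 were higher and 1 was lower, with a median of 0.07, or -0.06 after quantile normalization. SRSF8 had 0.967 and 1.07 RPKM at T0-2 and 2.52 and 2.31 RPKM at T8-10 (log2 difference 1.07, SE 0.11, adjusted p 0.00199), SRSF3 differed by 0.62 and the kinase SRPK1 by -0.46. In VLDLR, SCD and SRSF8 both late libraries were separate from both early ones. Without early 1, early 2, late 1 and late 2, the calls became 0, 1, 1 and 0 higher with 1 lower each time for the first list, 0, 2, 0 and 0 higher with 1, 1, 0 and 2 lower for the second, and 1, 2, 1 and 3 higher with none lower for the third. None was called without the block.

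Nuclear long non-coding RNAs gave 4 higher and 3 lower of 19 tested, 21.1% and 15.8% against 17.5% and 7.75% of all genes, with a median of 0.12. After quantile normalization 2 were higher and 4 lower, with a median of -0.11, and after median scaling 1 and 4. LINC01705 had 7.19 and 4.72 RPKM at T0-2 and 1.01 and 0.813 RPKM at T8-10 (log2 difference -2.39, SE 0.20, adjusted p 0.00125). LUCAT1, an RNA targeted by knockdown elsewhere in the study, had 2.73 and 1.67 RPKM at T0-2 and 0.514 and 0.533 RPKM at T8-10 (log2 difference -1.63, SE 0.16, adjusted p 0.00146). Both reached much of their decrease by T2-4, with means of 1.84 and 0.908 RPKM, and their groups were separate. MANCR, which is LINC00704 and another target, had 10.4 and 5.3 RPKM at T0-2 and 6.78 and 3.71 RPKM at T8-10 (log2 difference -0.55, SE 0.12, adjusted p 0.0191). Here late 1 lay between early 2 and early 1, so the groups overlapped, and the call rests on the pairing. MIAT, the third target, had 0.832 and 0.942 RPKM at T0-2 and 1.14 and 1.37 RPKM at T8-10 (log2 difference 0.40, SE 0.19, adjusted p 0.143) and was not called, although both late libraries exceeded both early ones. GAS5 and PURPL, a p53-induced RNA with a difference of 0.58, and NORAD, a cytoplasmic RNA that binds Pumilio proteins, also with 0.58, were higher. Without early 1, early 2, late 1 and late 2, the list had 0, 1, 0 and 1 higher and 2, 3, 2 and 2 lower members. LINC01705 alone was called without the block. Strand use in counting is not stated for these libraries, so reads of an antisense RNA such as LUCAT1 and of overlapping genes cannot be told apart.

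Small nuclear and other RNAs without poly(A) tails gave no call in limma over the 10 libraries: none of 6 tested passed in either direction, 3 had an unadjusted p under 0.05, and the median was 1.10. With only the 4 compared libraries fitted, 4 of the 6 were higher, and 1 was without T2-4 replicate 1, T2-4 replicate 2 or late 2. RNU4-2 had 108 and 27360.4 RPKM at T0-2 and 234 and 50989 RPKM at T8-10. RNU4-1 had 58.7 and 16075 RPKM at T0-2 and 176 and 28337 RPKM at T8-10. The late library exceeded the early one of the same number in both genes, and the replicates differed far more than the windows. RNU5B-1, RNVU1-7 and RNU6ATAC were instead higher in replicate 1. RNU5B-1 had 20.4 and 4.08 RPKM at T0-2 and 47.9 and 4.39 RPKM at T8-10. RN7SL2 rose only in replicate 1, with 1743 and 1557 RPKM at T0-2 and 1969 and 1367 RPKM at T8-10.

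TXNIP, an arrestin that is induced by glucose and limits its uptake, had 31.4 and 73.8 RPKM at T0-2 and 105 and 128 RPKM at T8-10 (log2 difference 1.26, SE 0.26, adjusted p 0.0144). Its mean was 89.5 RPKM at T2-4 and 108 RPKM at T4-6, so it was above T0-2 in every later window. Outside the lists, the 15 largest decreases held ZEB1, a repressor of epithelial genes, with 10.2 and 5.11 RPKM at T0-2 and 2.2 and 1.58 RPKM at T8-10 (log2 difference -1.82, SE 0.14, adjusted p 0.000873). HBEGF, an EGF receptor ligand, had 12 and 4.82 RPKM at T0-2 and 3.68 and 1.32 RPKM at T8-10 (log2 difference -1.67, SE 0.17, adjusted p 0.00153). FAM111B had 7.28 and 3.41 RPKM at T0-2 and 2.26 and 0.899 RPKM at T8-10 (log2 difference -1.63, SE 0.16, adjusted p 0.0015). ZEB1 fell to 2.91 RPKM by T2-4. The mean of FAM111B was 5.43 RPKM at T2-4 and 5.77 RPKM at T4-6, but its replicates differed. At T4-6 replicate 1 of FAM111B had 8.94 RPKM, above early 1, and replicate 2 had 2.59 RPKM, below early 2. The non-coding RNAs AL353740.1, AL591845.1 and LINC01629 differed by -1.72, -1.70 and -1.62. None of these 6 had overlapping groups, as the choice of the 15 largest decreases required, and none was called without the block.

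Across all called genes the course was graded. Of the 1660 higher genes, 1151 had their highest mean at T8-10, 363 at T6-8 and 114 at T4-6. Of the 737 lower genes, 595 were highest at T0-2 and 115 at T2-4. The means of the compared windows entered the calls, so these shares describe the course and are not a test of it.

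**Figure D4:**
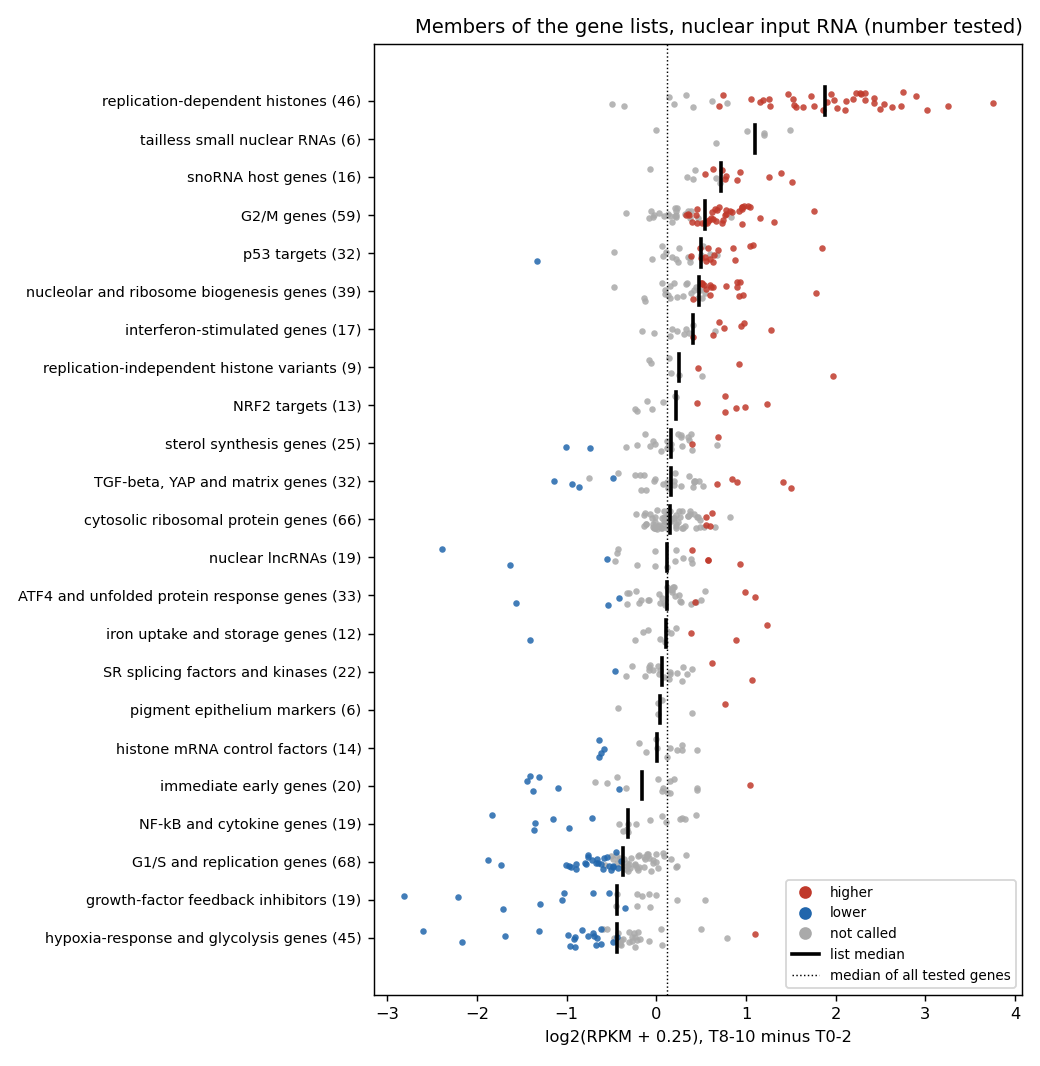
Log2(RPKM + 0.25) at T8-10 minus T0-2 for each tested member of 23 gene lists, coloured by call, with the list median (bar) and the median of all tested genes, 0.12 (dotted). The medians of histones, snoRNA host genes and G2/M genes lie to the right of it and those of hypoxia-response, growth-factor feedback and G1/S genes to the left, with members on both sides.

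The same windows were set side by side in the other 3 kinds of RNA, each fitted alone because the tables were scaled separately. No test was run across them. Whole-cell input RNA gave 5.93% of genes higher and 3.8% lower. Nuclear nascent RNA gave 0 of 9674 genes higher and 7 lower, and whole-cell nascent RNA gave 1.09% and 1.05%. Histones had a median difference of 1.00 in whole-cell input, 1.72 in nuclear nascent and 0.73 in whole-cell nascent RNA, beside 1.88 here, and 12 of 47 were called in whole-cell input. Hypoxia-response genes had medians of -0.99, -0.49 and -0.74 beside -0.44, and 23 of 46 were lower in whole-cell input. G2/M genes had 0.67, 0.32 and 0.85 beside 0.54, and 23 of 60 were higher in whole-cell input. The snoRNA host genes had 0.11, 0.66 and 0.46 beside 0.72, and none of 17 was called in whole-cell input. The sign of these 4 medians was thus the same in each kind of RNA. For snoRNA host genes in whole-cell input RNA the median was near the 0.08 of all genes. Their replicate medians there were 0.23 and -0.03, so they shared no direction. Some lists whose medians moved the opposite way in another kind are given below.

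**Figure D5:**
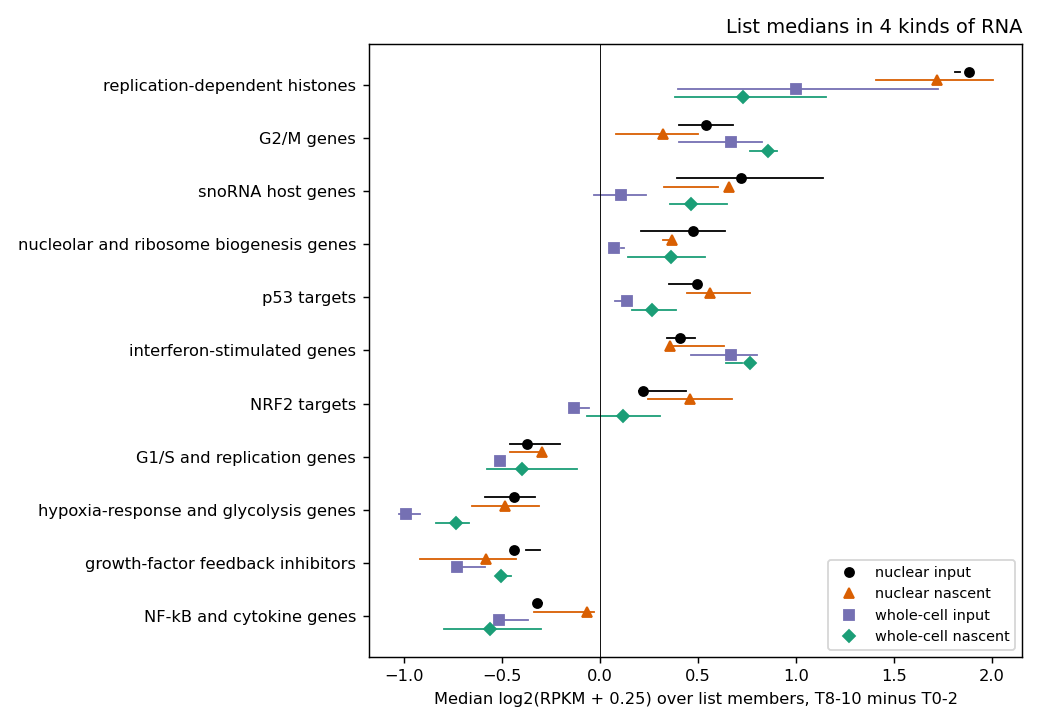
Median log2(RPKM + 0.25) at T8-10 minus T0-2 over the members of 11 lists in nuclear input and the other 3 kinds of RNA; symbols give the median of the fitted differences and lines join the medians of replicates 1 and 2. Histone medians run from 0.73 to 1.88 and hypoxia-response medians from -0.99 to -0.44.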

How the data were processed

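RNA of hTERT-RPE1 nuclei was sequenced as input libraries, and the authors deposited 1 table per kind of RNA with 1 RPKM column per library, per the file headers. STAR 2.5.3, featureCounts 1.6.1, edgeR, Bowtie2 2.3.4.3 and HOMER 4.10.3 on hg38 are named in the submitters' processing notes, with no role or order, and no annotation or filter is stated there. Gene lengths in base pairs, per the file headers of other deposited tables, span whole genes, introns included. Multiplying RPKM by them gave whole reads for 100% of tested values of up to 200 reads, within 0.05 of a read, and so the depth. Values were analysed as log2(RPKM + 0.25), which understates changes of weak genes, keeping the 9509 of 16794 genes that reached 0.5 RPKM in 2 or more of the 10 window libraries. limma 3.58.1 in R 4.3.3 was fitted with window and replicate number, a mean trend in eBayes, 4 residual degrees of freedom and Benjamini-Hochberg adjustment over all tested genes; a call means an adjusted p under 0.05. SE is the fit's standard error, and each group has n = 2 libraries.

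The replicate block was used because same-numbered libraries deviated together: deviations correlated at 0.752 to 0.862 over 10 pairs of windows, and the first principal component, 58.6% of variance, separated the numbers. In simulated data built from this fit, 100 of 9509 genes changed by 1 and 100 by 2 on the log2 scale. This fit recovered 73% and 98% of them, against 23% and 63% without the block. Of its calls, 10 (5.52%) were of unchanged genes, against 1 (1.15%) without the block. Replicate effect and spread were taken from the blocked fit, so the simulation cannot decide between the fits. Named genes were up to 5 called members per list with the largest differences, the 15 higher and 15 lower called genes with the largest differences among those with at least 2 RPKM and separate groups, the targets MANCR, LUCAT1 and MIAT, and CCNE1, CCNA2, CCNB1, SLBP, NPAT and TXNIP. The comparison, lists and named genes were chosen with earlier results of these data known. Promoters were matched by Ensembl ID and symbol for 7452 of 9509 tested genes. Alternatives changed the block, the libraries fitted, pseudocount, filter, scaling and trend. Python 3.11.15 with matplotlib 3.10.9 drew the figures. Asynchronous and knockdown libraries were not used here. One named gene is not reported here.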

Additional observations from a re-analysis of the deposited data

Results flagged for a closer look

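For 3 lists and 5 named genes, both pairs of nuclear input RNA moved one way from T0-2 to T8-10 and both pairs of another kind of RNA moved the opposite way. The tables were scaled separately, and none of these differences was tested. RNAs without poly(A) tails had a median log2 difference of 1.10 over 6 members in nuclear input, with 1.40 and 0.81 in replicates 1 and 2. In whole-cell input RNA it was -0.48 over 9 members, with -0.37 and -0.07. In whole-cell nascent RNA it was -1.03 over 6 members, with -0.93 and -0.65. Each kind of RNA was filtered alone, so the medians of a list need not cover the same members. NRF2 targets had a median of 0.22 over 13 members in nuclear input and -0.13 over 14 members in whole-cell input RNA. SR splicing factors and kinases had 0.07 here against -0.09 in the nascent fraction of nuclei, and their nuclear input median turned to -0.06 after quantile normalization.

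SNHG19, a snoRNA host gene, differed by 1.39 in nuclear input and -0.28 in whole-cell input RNA. RPL37 and RPL37A, which encode ribosomal proteins, differed by 0.59 and 0.56 in nuclear input and -0.21 and -0.29 in whole-cell input RNA. NPM3 differed by 0.90 and -0.12 in the same tables. H3F3B differed by 0.47 in nuclear input and -1.09 in whole-cell nascent RNA, where its pairs were -0.17 and -2.0.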

How the results depend on the processing

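No named gene changed sign under any alternative run, and the counts below are those that moved by over 1.5 times. Without the replicate block, 18 genes were higher and 7 lower, and the called members became 14 histones, 2 hypoxia-response genes, 1 nucleolar gene and 0 in each of the G1/S, G2/M, p53, growth-factor feedback, immediate early, TGF-beta, snoRNA host, NRF2, NF-kB and interferon lists. With only the 4 compared libraries fitted, 1064 genes were higher and 467 lower, with 24 G2/M, 10 p53, 4 snoRNA host, 4 NF-kB and 4 of 6 tailless RNA members, the last with no call over all 10 libraries. Quantile normalization gave 1021 higher and 1216 lower genes, 39 G1/S, 33 hypoxia-response and 4 NRF2 members, and median scaling gave 1066 and 1110 genes. Histone variants fell from 3 to 1 under both scalings. Other filters gave 4 NF-kB members (none) and 3 immediate early genes (at least 1 RPKM).

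Leaving out each of the 10 libraries in turn gave 256 to 1603 higher and 162 to 712 lower genes. Called members ran from 30 to 38 for histones, 10 to 29 for G1/S, 9 to 37 for G2/M, 3 to 19 for p53, 9 to 19 for hypoxia-response, 3 to 8 for growth-factor feedback, 1 to 5 for immediate early, 2 to 6 for TGF-beta, 0 to 10 for snoRNA host, 2 to 18 for nucleolar, 2 to 6 for NRF2, 1 to 6 for NF-kB and 2 to 8 for interferon genes. Where a compared library is left out, its window has 1 library, assumed to vary like the others. Of 113 named genes, 97 lost their call without the block, 52 without T0-2 replicate 1 and 52 without T8-10 replicate 1. Medians within 0.2 of 0 changed sign in 8 lists: immediate early genes to 0.07 with at least 1 RPKM, ribosomal protein genes to -0.01 without T8-10 replicate 1, and, after quantile normalization, TGF-beta to -0.20, SR factors to -0.06, nuclear lncRNAs to -0.11, ATF4 genes to -0.03, histone mRNA control factors to -0.10 and pigment epithelium markers to -0.07. With 2 libraries a window, changes near 1 on the log2 scale were recovered less often than larger ones.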

Other observations

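Outside the histone genes, the largest rises with at least 2 RPKM at T8-10 and separate groups fell in genes of several roles; these were chosen after their values were seen. PIF1, a DNA helicase, had 0.18 and 0.444 RPKM at T0-2 and 1.97 and 2.67 RPKM at T8-10 (log2 difference 2.22, SE 0.14, adjusted p 0.000659). FZD2, a Wnt receptor, had 1.65 and 1.44 RPKM early and 7.11 and 6.08 RPKM late (log2 difference 1.93, SE 0.14, adjusted p 0.000752). FBXO32, a ubiquitin ligase subunit known from muscle wasting, had 5.19 and 2.98 RPKM early and 14.0 and 12.6 RPKM late (log2 difference 1.69, SE 0.19, adjusted p 0.00211). AMT, an enzyme of glycine cleavage, and ALDH1B1, a mitochondrial aldehyde dehydrogenase, differed by 1.81 and 1.69. In each of these 5 genes T8-10 was the window with the highest mean.

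Calls varied with gene length. Among 128 tested genes under 1 kb, 33.6% were higher and 0.781% lower, and among 551 genes over 200 kb, 7.62% were higher and 18.3% lower, with the bins between in order except that 1 to 5 kb and 5 to 20 kb had 22.3% and 23.2% higher. Median differences went from 0.56 under 1 kb to -0.05 over 200 kb. Histones were 34 of the 128 short genes; the other 94 had a median of 0.33, with 11 higher and 1 lower. List members had median lengths of 0.423 kb for histones, 4.98 kb for snoRNA host genes, 29.4 kb for G2/M genes and 28.2 kb for hypoxia-response genes, against 29.9 kb for all tested genes. The part of length in the list results was not tested.

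By gene type, 17.6% of protein-coding genes were higher and 7.86% lower, against 16.1% and 7.9% of 329 lincRNAs and 14.7% and 9.91% of 232 antisense RNAs.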
